A study of Sus scrofa with 6 samples.

Results

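Chromosome 11 of the pig held 11444 methylation-enriched regions in longissimus dorsi, a back muscle that runs along the spine, out of 88582 on the 5 chromosomes whose peak lists are complete in every library (1, 10, 11, 12 and 13). All peaks with chromosome 11 as their chromosome were taken from the 6 lists, and peaks that overlapped by at least 1 bp in any libraries were merged into a region, so that the choice used position alone. The libraries came from purebred female pigs of 2 breeds, 3 of Yorkshire, a lean Western breed, and 3 of Wannanhua, a Chinese breed. No treatment and no age is given, and the labels do not say that the 3 samples of a breed are separate animals, so the p-values rest on a spread that may be technical. The muscle was taken whole, so that methylation within a cell type and the mix of cell types cannot be told apart. The lists hold no expression values with which to check the tissue.

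In vertebrates DNA methylation sits almost entirely on cytosines followed by guanine (CpG sites). Most CpG sites of the genome are methylated, while dense clusters of them at active promoters usually are not. Methylated DNA immunoprecipitation sequencing (MeDIP-seq) pulls down sheared DNA with an antibody against methylated cytosine, so a peak marks a place where many methylated CpG sites lie close together, and stretches with few CpG sites give few peaks even when those sites are methylated. In skeletal muscle, DNA methylation takes part in fixing the identity of muscle fibres and in silencing repeats. Pig chromosome 11 carries most of the genes found on human chromosome 13.

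After removal of duplicates the libraries held 6728444 to 17108367 tags, and the smallest chromosome 11 peak had 7 to 13 tags. The fragment length, here always the peak caller's estimate and not a measured size, was 150, 169 and 97 bp in Yorkshire 1, 2 and 3. In Wannanhua 1, 2 and 3 it was 179, 193 and 202 bp. Breed and fragment length can therefore not be told apart. The redundant rate, the share of tags removed as duplicates, was 0.58, 0.39 and 0.69 in Yorkshire 1, 2 and 3. In Wannanhua 1, 2 and 3 it was 0.29, 0.40 and 0.39, so that Yorkshire 1 and 3 lay above every Wannanhua library and Yorkshire 2 among them. The part of this difference in the results was not tested. Yorkshire 3 stood apart with the shortest estimated fragment length and the highest redundant rate, and Wannanhua 1 with the fewest peaks. The genome build is not given in the sources used here. The last peak ended at 87689825, which is 8525374 bp past the last chromosome 11 gene of the Sscrofa11.1 gene table, so regions are given by the coordinates of the lists and none was assigned to a gene.

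Along the chromosome, peaks were dense towards both ends and sparse in the middle, and the same profile appeared in all 6 libraries. Chromosome 11 was divided into 88 windows of 1 Mb, and the mean of the 6 libraries had a median of 76.2 peaks per full window. Of the 25 full windows with a mean of 100 or more, 21 lay within 20 Mb of an end. A stretch of 21 windows from 28000001 to 49000000, picked out after the profile was seen, had means of 17.0 to 58.5 peaks. In that stretch Yorkshire 1, 2 and 3 had 37.6, 37.1 and 31.4 peaks per Mb and Wannanhua 1, 2 and 3 had 18.4, 33.2 and 33.8. Wannanhua 1 was thus the low library there, and the other 5 lay close together. The density rose again to between 62.8 and 99.8 from 49000001 to 58000000, fell to between 31.7 and 52.7 from 58000001 to 69000000, and then climbed to the densest part of the chromosome.

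**Figure D1:**
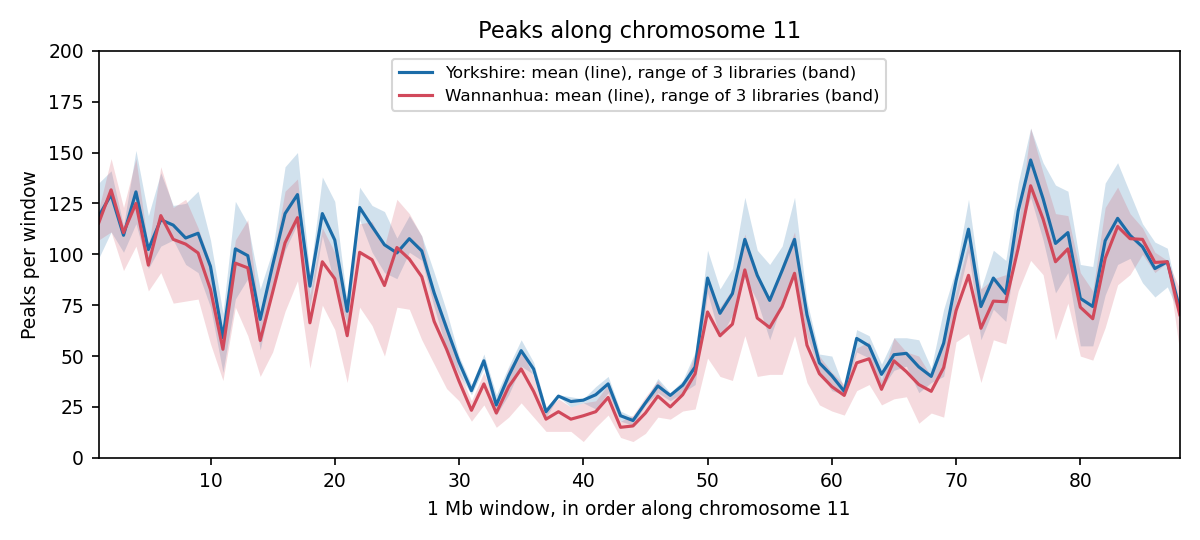
Peaks per 1 Mb window (vertical axis) for the 88 windows in order along chromosome 11 (horizontal axis; the last window is not full), with the mean of the 3 libraries of each breed as a line and their range as a band. Both breeds show the trough of windows 29 to 49, with means between 17.0 and 58.5, and the highest point at window 76.

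The 5 densest windows all lay within 20 Mb of an end. The window from 75000001 to 76000000 had 149, 162 and 128 peaks in Yorkshire 1, 2 and 3 and 97, 162 and 142 in Wannanhua 1, 2 and 3. The window from 1000001 to 2000000 had 111, 141 and 136 in Yorkshire and 111, 147 and 137 in Wannanhua. In this window, near the first end, Wannanhua 1 equalled Yorkshire 1, whereas in the densest window it was the lowest library. The other densest windows were 3000001 to 4000000 (mean 127.8), 16000001 to 17000000 (mean 123.7) and 76000001 to 77000000 (mean 122.3).

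The 5 sparsest windows all lay inside the sparse stretch. The window from 43000001 to 44000000 had 19, 20 and 16 peaks in Yorkshire 1, 2 and 3 and 8, 18 and 21 in Wannanhua 1, 2 and 3. That from 42000001 to 43000000 had 23, 21 and 18, and 10, 17 and 18. The breeds overlapped in the first of these and met at 18 peaks in the second, with Wannanhua 1 again lowest. The remaining 3, from 36000001 to 37000000, 38000001 to 39000000 and 32000001 to 33000000, had means of 20.8, 23.3 and 24.0. Peaks in sparse windows were more strongly enriched: the median fold enrichment over local background, which is the authors' own value, averaged 19.3 over libraries from 43000001 to 44000000 and 10.5 from 75000001 to 76000000.

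Stretches with no peak in any library were also concentrated there. The median gap between neighbouring regions was 3660.5 bp, and 19 of the 24 gaps of at least 100 kb lay between 28000001 and 49000000. The longest were chr11:31989390-32155245 (165856 bp), chr11:44005369-44170862 (165494 bp), chr11:36143871-36305676 (161806 bp), chr11:41180622-41341842 (161221 bp) and chr11:41966912-42110830 (143919 bp). The longest began just before 32000001 and ran into one of the 5 sparsest windows.

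Within 20 Mb of an end, peak density was 99.5, 118 and 89.8 per Mb in Yorkshire 1, 2 and 3 and 71.6, 108 and 103 in Wannanhua 1, 2 and 3. Further inside it was 58.9, 64.5 and 51.1 in Yorkshire and 31.9, 57.6 and 56.4 in Wannanhua. The ratio of the densities was 1.76 ± 0.070 in Yorkshire and 1.98 ± 0.23 in Wannanhua (SD, n = 3; two-sided exact permutation p = 0.2, where 0.1 is the smallest 3 against 3 allows). Wannanhua 1 had the highest ratio, 2.24, against 1.83 to 1.88 in the other Wannanhua libraries, and without it the breed difference went from 0.224 to 0.0935. With end zones of 10 Mb the difference was 0.246, and with peaks of a score of at least 100 alone it was 0.488. Each of these had an exact permutation p of 0.1, the smallest possible. The low-coordinate end was the denser one in all 6 libraries, with 106 ± 14.1 peaks per Mb against 99.0 ± 14.6 at the other in Yorkshire, and 97.4 ± 20.6 against 91.2 ± 19.1 in Wannanhua, a difference that was not tested. Peaks near the ends were wider and less enriched than those inside in every library. Their median width was 476 ± 149 against 407 ± 99.1 bp in Yorkshire, and in Wannanhua it was 664 ± 88.7 against 527 ± 57.8 bp. The median fold enrichment was 12.5 ± 3.48 against 17.5 ± 5.75 in Yorkshire and 10.02 ± 1.25 against 13.1 ± 2.25 in Wannanhua.

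To see whether the breeds place their peaks differently, the share of a library's peaks in each window was compared with limma on the log2(peaks + 1) scale. No window of chromosome 11 passed an adjusted p of 0.05 (0 of 88, where 0% of the 764 windows tested on all 5 chromosomes passed), and 4 had an unadjusted p under 0.05. Differences ran from -0.39 to 0.28 on the log2 scale, with a median of -0.04 here and -0.03 over all windows. The smallest p for a higher share in Wannanhua belonged to the window from 24000001 to 25000000, with 106, 108 and 88 peaks in Yorkshire 1, 2 and 3 and 74, 127 and 109 in Wannanhua 1, 2 and 3 (log2 difference of shares 0.23, SE 0.08, limma adjusted p = 0.465). The windows from 5000001 to 6000000 (0.23, SE 0.09) and from 7000001 to 8000000 (0.16, SE 0.07) came next. Towards Yorkshire they were 53000001 to 54000000 (-0.23, SE 0.10), 35000001 to 36000000 (-0.25, SE 0.11) and 38000001 to 39000000 (-0.34, SE 0.17), and the counts of the breeds overlapped in all but the window from 35000001 to 36000000, where Yorkshire had 43, 47 and 41 peaks and Wannanhua 20, 38 and 40, and that from 38000001 to 39000000, where they met at 25.

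The answer changed with which peaks were counted. With peaks of a score of at least 100 alone, where the score grows with the negative log10 of the caller's p, 10 chromosome 11 windows had a higher share in Wannanhua and 0 in Yorkshire (limma, adjusted p under 0.05), where 6.37% and 1.2% of the 753 windows tested on all 5 chromosomes did. All 10 lay within 20 Mb of an end. From 2000001 to 3000000 such peaks numbered 19, 51 and 22 in Yorkshire 1, 2 and 3 and 34, 56 and 54 in Wannanhua 1, 2 and 3 (log2 difference of shares 1.11, SE 0.24). From 84000001 to 85000000 they numbered 14, 39 and 18, and 19, 47 and 46 (1.04, SE 0.22). In both windows Yorkshire 2 lay above Wannanhua 1 in number, but Wannanhua 1 had only 1302 such peaks on the whole chromosome against 2538 to 3427 in the other 5 libraries. With called bases in place of peaks, 3 windows had a higher share in Wannanhua, all within 3 Mb of an end, and 4 in Yorkshire, all from 17000001 to 56000000, where the shares over the 5 chromosomes were 3.91% and 4.82% of 767. The part of depth and of fragment length in these differences was not tested.

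Chromosome 11 differed from the other 4 chromosomes combined in every library. It had 1.12 ± 0.022 times their peaks per Mb (SD over 6 libraries, higher in 6 of 6), 1.23 ± 0.051 times their covered share of length (6 of 6), 1.05 ± 0.020 times their median peak width (6 of 6) and 1.14 ± 0.048 times their mean tags per peak (6 of 6). The median fold enrichment was 0.901 ± 0.023 times theirs, lower in 6 of 6. A two-sided exact permutation test that flips the sign of each library's log ratio gave p = 0.0313 for each of the 5 measures (adjusted p 0.0313), the smallest that 6 pairs allow. This p measures the agreement of the libraries on the same chromosomes and not the spread among chromosomes. With peaks of a score of at least 100 the density ratio was 1.06 and its adjusted p was 0.0938 by the same exact permutation test. The ratios of covered share, fold enrichment and tags were then 1.17, 0.914 and 1.12, each with an adjusted p of 0.0521 from the smallest p that 6 pairs allow, and that of width was 1.07 (adjusted p 0.0781). In each library chromosome 11 stood between chromosomes 10 and 12, which had more peaks per Mb and a lower median fold enrichment, and chromosomes 1 and 13, which had fewer and a higher one. Chromosomes 1 and 13 make up most of the combined length. Their last peaks ended at 315248405 and 218632340, against 79100115 and 63578348 on chromosomes 10 and 12.

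**Figure D2:**
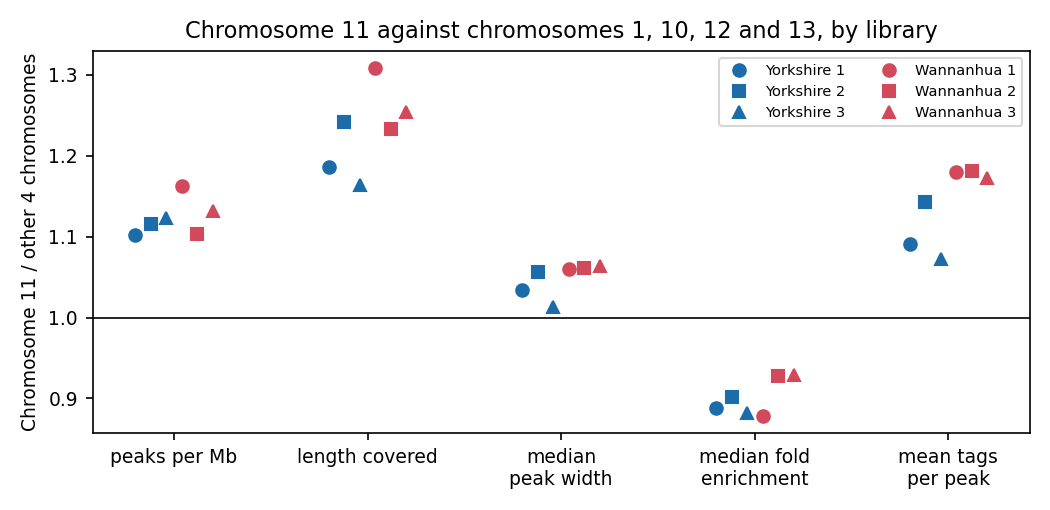
Ratio of chromosome 11 to chromosomes 1, 10, 12 and 13 together (vertical axis; the line at 1 is equality) for 5 measures, with 1 point per library, in blue for Yorkshire and red for Wannanhua. Fold enrichment alone lies under 1, and the 6 libraries of each measure lie on the same side of 1.

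On chromosome 11 Yorkshire 1, 2 and 3 had 6791, 7799 and 6029 peaks and Wannanhua 1, 2 and 3 had 4385, 7072 and 6817. The groups overlapped, and the lower Wannanhua mean came from Wannanhua 1, since the mean of the other Wannanhua libraries was 71.5 above that of Yorkshire. Peaks covered 3.61, 5.26 and 2.02 Mb in Yorkshire and 2.82, 5.56 and 5.46 Mb in Wannanhua. The median peak was 460, 546 and 309 bp wide in Yorkshire, and 517, 619 and 652 bp wide in Wannanhua, so that Yorkshire 2 was wider than Wannanhua 1. The median fold enrichment was 13.1, 10.9 and 19.9 in Yorkshire and 13.1, 10.2 and 10.3 in Wannanhua, with Yorkshire 3 far above the rest. Per 1000000 filtered tags, 14530.5, 16939.6 and 14940.5 fell in chromosome 11 peaks in Yorkshire and 13421.5, 17180.3 and 16680.4 in Wannanhua. Exact two-sided permutation p-values for 6 such measures, the share of peaks on chromosome 11 included, ran from 0.2 for width to 0.9 for tags, with a lowest adjusted p of 0.75. With 3 against 3 libraries no p can go below 0.1, so that none of these measures could have passed 0.05.

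Regions were most often called either in a single library or in all of them. Of the 11444 regions, 2983 (26.1%) were called in 1 library, 1780 in 2, 1433 in 3, 1320 in 4, 1634 in 5 and 2294 (20.05%) in all 6, where 21.6% of the regions of the 5 chromosomes were called in all 6. The share called in all 6 was 23.2% on chromosome 1, 18.5% on chromosome 10, 18.0% on chromosome 12 and 24.0% on chromosome 13. Widely shared regions were wider, with a median of 832 bp in all 6 libraries against 433 bp in 1, although merging peaks of more libraries also widens a region. They were more strongly enriched too: in Yorkshire 2 the median fold enrichment was 13.9 in regions called in all 6 and 9.17 in regions called there alone, and in Wannanhua 1 it was 15.5 and 10.2. Near the ends sharing was rarer, with 18.1% of 1946 regions within 5 Mb of an end called in all 6 and 23.9% of 2134 regions further than 30 Mb from both.

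Regions that lacked a peak in a single library lacked it most often in a shallow one. Of the 1634 regions called in 5 libraries, 859 (52.6%) lacked a peak in Wannanhua 1, 349 in Yorkshire 3, 192 in Yorkshire 1, 115 in Wannanhua 3, 62 in Wannanhua 2 and 57 in Yorkshire 2. The 2 libraries most often missing are the shallowest, with 7413391 and 6728444 filtered tags, and the part of depth was not tested. Of the regions called in a single library, 807 were in Yorkshire 2, 482 to 522 in Yorkshire 1 and 3 and in Wannanhua 2 and 3, and 164 in Wannanhua 1. The Jaccard index, the share of regions called in either of a pair that both call, was 0.537 on average in the 6 pairs within a breed (0.481 to 0.620) and 0.496 in the 9 pairs between breeds (0.413 to 0.575), ranges that overlap.

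**Figure D3:**
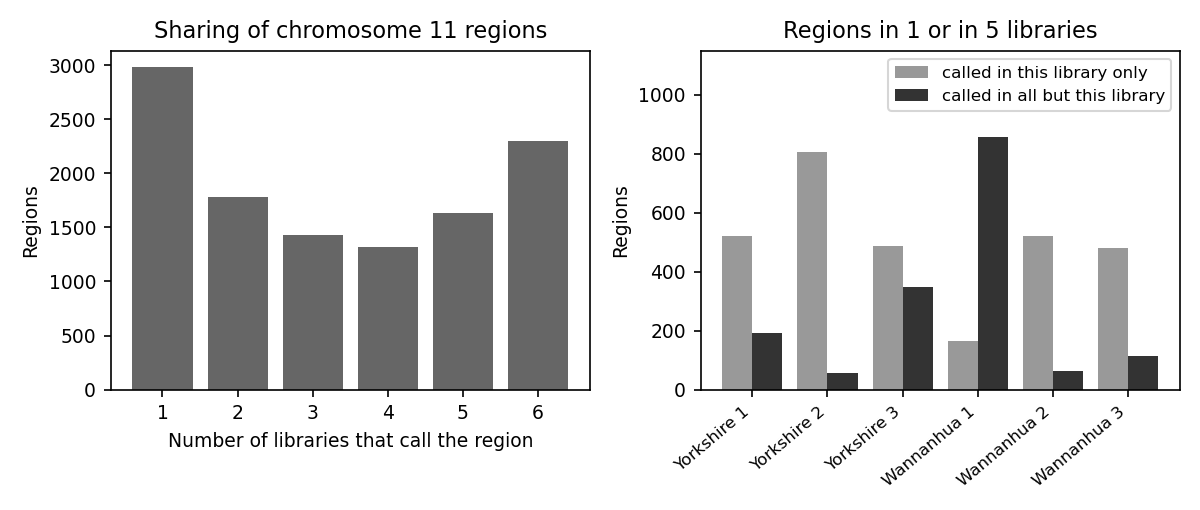
Left, number of chromosome 11 regions (vertical axis) by how many of the 6 libraries call them (horizontal axis). Right, for each library, the regions called in it alone (light bars, 164 to 807) and those called in every other library but not in it (dark bars, 57 to 859), with Wannanhua 1 lowest in the first and highest in the second.

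The position of a peak's summit hardly moved between libraries. In the 2008 regions with exactly 1 peak in each of the 6 libraries, the 6 summits spanned a median of 78 bp (quartiles 51 and 127 bp). The mean summits of the breeds lay a median of 21.7 bp apart. Pairs of libraries differed by a median of 20 bp (Wannanhua 2 and 3) to 38 bp (Yorkshire 3 and Wannanhua 1), and the 5 pairs with Yorkshire 3 had the longest distances, 31 to 38 bp. The breeds' summits in these regions thus lay closer together than the shortest estimated fragment length, 97 bp, in the median region. In the other 286 regions called in all 6, at least 1 library split the region into several peaks, most often Yorkshire 3 (175 regions) and least often Wannanhua 2 (58).

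The 5 regions called in all 6 libraries with the highest mean fold enrichment over local background were short, 555 to 737 bp. Of these, 3 lay in the sparse stretch, and the ranking is not one by tags. The highest mean fold enrichment was at chr11:46484172-46484814, with 48.99, 24.1 and 75.6 in Yorkshire 1, 2 and 3 and 35.2, 23.6 and 34.3 in Wannanhua 1, 2 and 3. It had 34, 25 and 23 tags in Yorkshire and 18, 35 and 46 in Wannanhua. The median region called in all 6 had 25, 33 and 17, and 16, 36 and 33, so Yorkshire 2 and Wannanhua 2 lay below their medians here. The other regions named in this paragraph had more tags than those medians in every library. At chr11:30349062-30349667 the folds were 40.8, 23.1 and 75.4 in Yorkshire and 37.2, 29.1 and 35.9 in Wannanhua. The breeds overlapped at both, and Yorkshire 3 was the highest library at each. The next were chr11:61023491-61024045 (42.4 ± 12.5 in Yorkshire and 36.3 ± 4.18 in Wannanhua), chr11:12816354-12817062 (41.7 ± 4.33 and 35.0 ± 7.20) and chr11:44252437-44253173 (46.6 ± 16.3 and 29.2 ± 2.36). The median over all 2294 shared regions was 16.2.

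Ranked by mean called length, the first regions among those called in all 6 libraries were wide and weakly enriched. The most called sequence was at chr11:38079071-38086220, where peaks covered 1760, 6866 and 2761 bp in Yorkshire 1, 2 and 3, against 6788, 7135 and 6949 bp in Wannanhua 1, 2 and 3, with a fold enrichment of 5.30 ± 1.27 and 4.93 ± 0.72 and 80 to 912 tags. It is the only one of the 5 longest in the sparse stretch, in the fourth sparsest window. The others were chr11:1025056-1032336 (mean called length 3815 bp), chr11:25420723-25426421 (3693 bp), chr11:86369353-86375633 (3397 bp) and chr11:85350109-85355348 (3358 bp). At chr11:86369353-86375633 Yorkshire 1, 2 and 3 called 937, 3804 and 270 bp and Wannanhua 4175, 6264 and 4931 bp, the groups being close but separate. Of the 241 regions of at least 2500 bp in any number of libraries, the widest of 8875 bp, 233 (96.7%) lay within 20 Mb of an end, where 61.5% of all chromosome 11 regions lay.

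A total of 189 regions (1.65%) were called in all 3 Yorkshire libraries and no Wannanhua library, where 1.47% of the regions of the 5 chromosomes were, and 123 (1.07%) in all 3 Wannanhua libraries and no Yorkshire library, against 0.798%. No test of either share against the other chromosomes was run. The Wannanhua-only regions lay mostly towards the ends, 102 of 123 (82.9%) within 20 Mb, against 118 of 189 (62.4%) of the Yorkshire-only regions and 61.5% of all regions, and only 3 were in the sparse stretch. Within 5 Mb of an end there were 46 Wannanhua-only and 37 Yorkshire-only regions, and further than 30 Mb from both ends 3 and 28. Wannanhua-only regions had a median width of 905 bp and a median of 17, 37 and 35 tags in Wannanhua 1, 2 and 3. Yorkshire-only regions had a median width of 553 bp and 16, 22 and 11 tags in Yorkshire 1, 2 and 3. The nearest Yorkshire peak was at most 1 kb from 62 of the 123, and the nearest Wannanhua peak at most 1 kb from 55 of the 189.

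These counts depended on the number of peaks taken. Yorkshire-only regions were 60.6% of the total, but 35.5% (106 against 193) with the 33496 strongest peaks of each library, and 49.2% (187 against 193) with a reciprocal overlap of 50%. Without Wannanhua 1 the counts were 214 and 359, without Yorkshire 3 they were 517 and 173, without Yorkshire 1 they were 345 and 175 and without Yorkshire 2 they were 340 and 316. Without Wannanhua 2 they were 407 and 197 and without Wannanhua 3 they were 340 and 195. Fewer libraries ask for fewer peaks, which raises the counts by construction.

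Ranked by mean score, the first Yorkshire-only region, chr11:50311893-50312321, had 19, 35 and 11 tags in Yorkshire 1, 2 and 3, and the nearest Wannanhua peak was 6686 bp away. At chr11:70391870-70392693 there were 22, 39 and 30 tags, but a Wannanhua peak was 392 bp away and with reciprocal overlap no region joined the 3 Yorkshire peaks. The others were chr11:80719606-80719956 (fold enrichment 28.6 ± 6.35, SD, n = 3), chr11:75318857-75319415 (16.3 ± 3.81) and chr11:77292592-77293132 (16.9 ± 8.88). The first Wannanhua-only region, chr11:15691920-15692526, had 19, 34 and 35 tags in Wannanhua 1, 2 and 3 and its nearest Yorkshire peak was 4622 bp away. At chr11:79275788-79276475 there were 17, 33 and 44 tags with a Yorkshire peak 139 bp away, and at chr11:83059196-83060690 there were 37, 78 and 84 tags with one 153 bp away. The first of these 2 also did not join under reciprocal overlap. The last were chr11:16973393-16974074 (fold enrichment 23.5 ± 8.15) and chr11:77590398-77590919 (18.5 ± 4.497), which were 4092 and 4321 bp from a Yorkshire peak. Isolation from the other breed thus varied from 139 to 6686 bp among the 10.

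Tags were compared in the 2294 regions with a peak in every library, by the quasi-likelihood test of edgeR at an adjusted p of 0.05. Wannanhua had more tags in 13 (the background over the 5 chromosomes was 0.543% of 19161) and Yorkshire in 2 (background 0.151%). Together they were 0.654% of the regions tested here against 0.694% on the 5 chromosomes, so chromosome 11 held about its share. The median log2 fold change, with Yorkshire as the base, was 0.03 here and -0.04 over all regions. Library size alone, here the sum of a library's tags in the tested regions and not its filtered tags, was also used in place of TMM scaling. The median log2 fold change was then -0.09 here and the counts were 16 and 10 (backgrounds 0.543% and 0.454% of 19161). DESeq2 gave 111 and 3, with backgrounds of 13.1% and 0.509% of the 3930 regions to which it gave an adjusted p. It gave none to 1597 of the 2294 chromosome 11 regions, so its counts here are not to be read as shares of 2294. In 585 regions (25.5%) the tags of the breeds did not overlap, 372 of them higher in Wannanhua, where 21.8% of all regions did not. The median SE of a region was 0.27 on the log2 scale.

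The balance shifted along the chromosome, in classes of distance set after the values were seen. In the 353 regions within 5 Mb of an end the log2 fold change had a median of 0.57, and 86.7% of the values were positive. It was 0.20 from 5 to 10 Mb, -0.01 from 10 to 20 Mb, -0.10 from 20 to 30 Mb and -0.09 further inside, where 37.5% of 510 regions had a positive value. Within 5 Mb of an end the median region had 60.5, 92.9 and 48.8 CPM (tags per 1000000 in the tested regions, after TMM scaling) in Yorkshire 1, 2 and 3 and 103, 113 and 108 in Wannanhua 1, 2 and 3. Further than 30 Mb from both ends it had 39.2, 35.8 and 41.5, and 35.2, 34.9 and 36.1. Near the ends the breeds did not overlap, and Yorkshire 2 was closer to Wannanhua 1 than to the other Yorkshire libraries. Yorkshire 3, with the shortest estimated fragment length, was lowest. Called length moved with it: within 5 Mb of an end a median of 835 bp was called in Yorkshire against 1246 bp in Wannanhua, and further than 30 Mb inside 437 and 537 bp. Per kb of called peak, the median fold of Wannanhua over Yorkshire was 1.02 near the ends and 0.724 inside. The part of called length and of fragment length in this gradient was not tested.

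**Figure D4:**
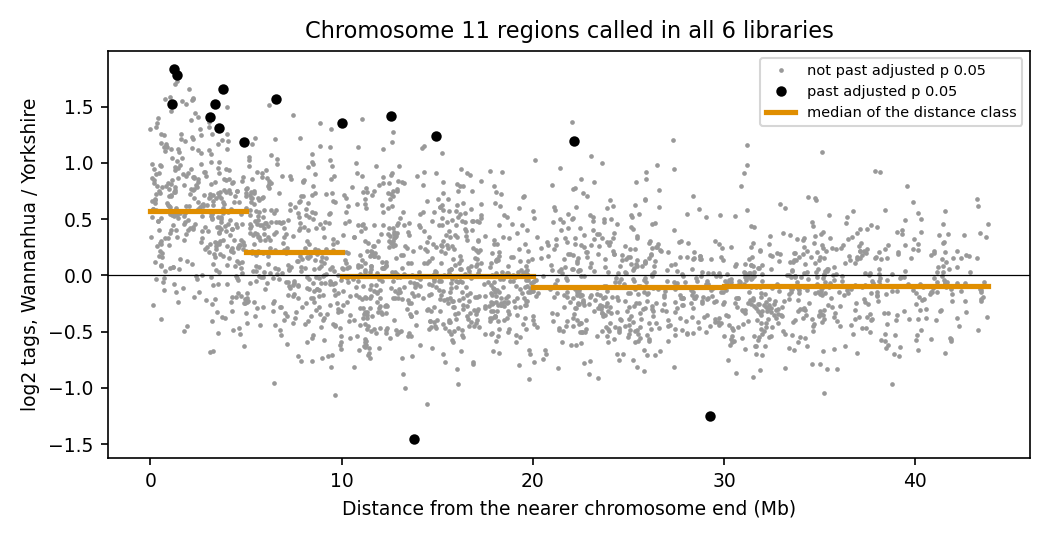
log2 fold change of tags, Wannanhua over Yorkshire (vertical axis), against the distance in Mb from the nearer end of chromosome 11 (horizontal axis) for the 2294 regions called in all 6 libraries; black points pass an adjusted p of 0.05 in edgeR and bars are medians of distance classes. The medians fall from 0.57 within 5 Mb of an end to -0.09 further than 30 Mb inside. Of the 13 regions higher in Wannanhua, 12 lie within 20 Mb of an end, where 1319 (57.5%) of the 2294 regions tested lie.

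The regions that passed had a median width of 1385 bp, and the others of 829 bp. The largest difference was at chr11:1263224-1266105, with 60.5, 45.1 and 34.1 CPM in Yorkshire 1, 2 and 3 and 182, 197 and 126 CPM in Wannanhua 1, 2 and 3 (log2 fold change 1.83, SE 0.37, edgeR adjusted p = 0.0186). The groups did not overlap, but peaks covered 567 bp on average in Yorkshire and 2326 bp in Wannanhua, and per kb of called peak the values were 93.0 ± 26.4 and 73.2 ± 18.6, so that the order turned. At chr11:1391609-1393413 there were 51.6, 65.0 and 41.5 CPM in Yorkshire and 222, 147 and 187 in Wannanhua (1.78, SE 0.38, edgeR adjusted p = 0.0213), where 604 and 1620 bp were called and per kb values were 89.6 ± 10.5 and 116 ± 30.2. At chr11:3805845-3808102 Yorkshire 2 had 104 CPM, well above Yorkshire 1 and 3 (37.4 and 31.7), and Wannanhua had 214, 171 and 180 (1.65, SE 0.41, edgeR adjusted p = 0.0478). Peaks covered 915 bp there in Yorkshire and 1911 bp in Wannanhua. Per kb the libraries of the breeds did not overlap, with 67.6 ± 13.5 in Yorkshire and 100 ± 23.5 in Wannanhua.

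Another 3 regions near the low-coordinate end passed. At chr11:6547544-6548903 the 3 Yorkshire libraries were tight, with 33.8, 37.2 and 31.7 CPM, and Wannanhua had 133, 95.04 and 85.5 (1.56, SE 0.31, edgeR adjusted p = 0.0182). Peaks covered 510 bp there in Yorkshire and 1095 bp in Wannanhua. Per kb the values were 69.9, 51.6 and 97.2 in Yorkshire and 125, 76.9 and 86.8 in Wannanhua, so that the breeds overlapped. At chr11:1132221-1133605 the levels were 44.6 ± 8.23 CPM in Yorkshire and 129 ± 7.32 in Wannanhua (log2 fold change 1.52), and at chr11:3128092-3130961 they were 48.8 ± 21.1 and 134 ± 12.99 (1.41). Per kb the order turned at both of these, with 111 ± 19.99 against 95.3 ± 4.61 at the first and 76.1 ± 18.0 against 59.2 ± 16.6 at the second. At the other end the named regions were chr11:84318990-84321479 (51.3 ± 28.6 CPM in Yorkshire and 153 ± 14.8 in Wannanhua, log2 fold change 1.52), chr11:75079200-75080612 (43.2 ± 17.4 and 118 ± 8.35, 1.42), chr11:77681664-77682657 (22.7 ± 1.95 and 57.9 ± 16.8, 1.35) and chr11:84086013-84087119 (34.3 ± 9.40 and 87.4 ± 8.44, 1.31). Per kb the means of these 4 remained higher in Wannanhua, by 1.08 to 1.36 times. The breeds overlapped per kb in all 4, however, and Wannanhua 1 was the highest library in each. At chr11:77681664-77682657 the per kb values were 51.3, 66.8 and 78.1 in Yorkshire 1, 2 and 3. In Wannanhua 1, 2 and 3 they were 129, 61.4 and 76.6. In the 13 regions the called length was 1.52 to 4.10 times as long in Wannanhua, and the fold per called kb had a median of 1.20 and was above 1 in 9.

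Both regions with more tags in Yorkshire lay away from the outermost windows. At chr11:73887058-73887689 Yorkshire 1, 2 and 3 had 112, 99.6 and 110 CPM and Wannanhua 1, 2 and 3 had 32.5, 46.9 and 34.8 (log2 fold change -1.46, SE 0.30, edgeR adjusted p = 0.0212). Called lengths were nearer to each other, 539 and 408 bp, and per kb the libraries still did not overlap, with 199 ± 19.5 in Yorkshire and 96.0 ± 21.7 in Wannanhua. It lies 2 windows before the densest window of the chromosome. At chr11:29252519-29253743, in the sparse stretch, Yorkshire had 53.4, 70.4 and 82.9 CPM and Wannanhua 37.9, 30.1 and 21.4 (-1.25, SE 0.27, edgeR adjusted p = 0.0217), where called lengths were 796 and 498 bp. Here per kb values were 68.6, 62.5 and 171 in Yorkshire and 72.7, 64.5 and 42.3 in Wannanhua, so that Yorkshire 1 and 2 lay below Wannanhua 1 and the breeds overlapped.

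**Figure D5:**
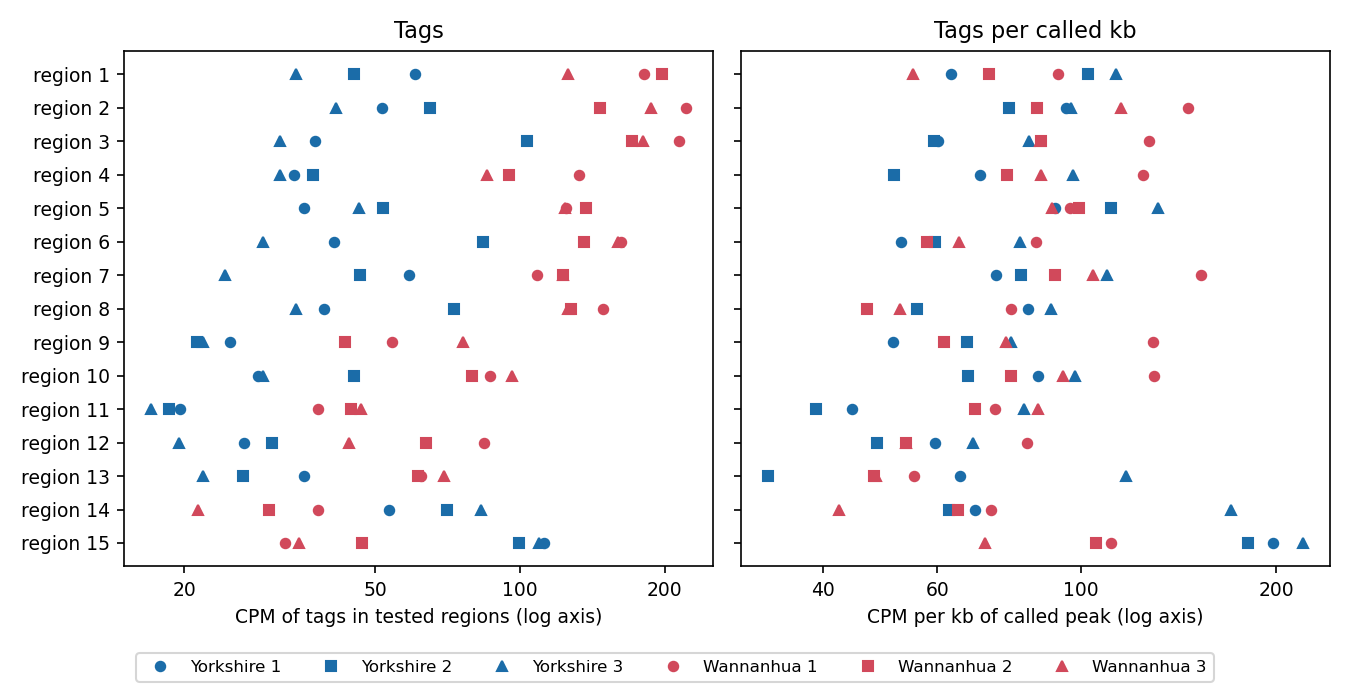
The 15 chromosome 11 regions that pass an adjusted p of 0.05 in edgeR, ordered by log2 fold change from 1.83 (region 1) to -1.46 (region 15), with 1 point per library; left, CPM of tags in tested regions, and right, CPM per kb of called peak, both on log axes. On the left no region's breeds overlap, and on the right they overlap in 13 of 15.

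None of the 15 regions passed in every edgeR fit without 1 library: each passed in 1 to 4 of the 6. Without Yorkshire 1, 2 and 3, 0, 334 and 9 chromosome 11 regions passed, and without Wannanhua 1, 2 and 3, 8, 1 and 2 passed. With fragment length as a covariate 0 regions higher in Wannanhua and 1 higher in Yorkshire passed (backgrounds 0.0104% and 0.0209% of 19161), and that 1 was none of the 15, whose adjusted p in edgeR was then 0.160 to 0.781. All 15 kept their direction, and the median SE of the chromosome 11 regions rose from 0.27 to 0.39. The log2 fold change was then 1.67 at chr11:1263224-1266105, 1.64 at chr11:6547544-6548903, 1.47 at chr11:1132221-1133605 and -1.39 at chr11:73887058-73887689, close to the values without the covariate. It fell from 1.65 to 0.87 at chr11:3805845-3808102, from 1.52 to 0.75 at chr11:84318990-84321479 and from 1.42 to 0.82 at chr11:75079200-75080612. Fragment length was shorter in every Yorkshire library than in any Wannanhua library. The fit can therefore not tell breed and fragment length apart in any of these regions.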

How the data were processed

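Peaks were called by the authors in each library separately with MACS, per the file headers (version 1.4.2 in 5 of the 6), without an input library. The settings were p 1e-05, band width 300 bp, a regional background of 10000 bp and at most 1 tag per position. Aligner and build: not given in the sources used here. The deposited tag count of a peak is a raw whole number. The deposited fold enrichment is a ratio to local background from the same library, and the deposited score grows with the negative log10 of p. Widths and summit offsets are in bp per the file headers. Without a control, copy number and mappability are uncorrected. Where a library has no peak, the cutoff was missed at that depth. Each list stops inside its last chromosome, so 5 complete chromosomes were used.

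For each region called in all 6 libraries, the tags of its peaks were added up in each library, and all 19161 such regions were fitted with edgeR 4.0.16 in R 4.3.3 (quasi-likelihood, robust, TMM, filterByExpr, Benjamini-Hochberg). A sum over peaks moves with called length, so both are given. Windows were fitted with limma 3.58.1 (trend, pseudocount 1, mean of at least 10 peaks), and 1 value per library was compared by exact tests. Peaks were placed in windows by their midpoints. Both fits were also run on simulated counts. These held no breed difference in fragment length or called length, so the runs do not bear on either. Python 3.11.15, numpy 2.4.6, pandas 2.3.3, scipy 1.17.1 and matplotlib 3.10.9 were used. Alternatives included DESeq2 1.42.0. Named were the 5 single-breed regions per breed with the highest mean score and up to 10 per direction that passed edgeR. From the shared regions, the 5 with the highest mean fold enrichment and the 5 with the most called length were named. The 5 densest and sparsest windows, 3 windows per direction with the smallest limma p and the 5 longest gaps were also named. The regions and lists were chosen with earlier results of these data known, and the sparse stretch and distance classes after the values were seen. No reference sequence was used here.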

Additional observations from a re-analysis of the deposited data

How the results depend on the processing

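Breed differences over whole libraries kept their direction under the alternatives run, except for 2 measures. The difference in peaks, -782, ran from -1272 to 71.5 when 1 library was left out and turned only without Wannanhua 1. That in tags in peaks per 1000000 filtered tags, 291, ran from -419 to 1460 and turned without Yorkshire 1 (-179), Wannanhua 2 (-419) and Wannanhua 3 (-169). The difference in the share of peaks on chromosome 11 was 0.182 percentage points. With a score of at least 100 it was 1.06 (exact permutation p = 0.1, unadjusted). The ratios of chromosome 11 to the other chromosomes kept their side of 1. With 5 libraries the exact test cannot go below 0.0625, and the ratios were 1.12 to 1.13 for density, 1.22 to 1.24 for covered share, 1.04 to 1.05 for width, 0.896 to 0.906 for fold and 1.13 to 1.15 for tags. With a score of at least 100 they were 1.06, 1.17, 1.07, 0.914 and 1.12 and none passed.

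Without 1 library, 2343 to 3155 regions were called in all, 214 to 517 were Yorkshire-only and 173 to 359 Wannanhua-only, and Yorkshire's share was 37.3% to 74.9%. Regions called in all 6 numbered 480 with a score of at least 100, 1118 with reciprocal overlap and 1259 with equal numbers of peaks. Single-breed counts were 104 Yorkshire-only (share 53.1%) with that score, 193 Wannanhua-only (49.2%) with reciprocal overlap, and 106 and 193 (35.5%) with equal numbers. The causes were not tested.

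Without 1 library, 0 to 297 regions higher in Wannanhua passed, and 0 to 37 higher in Yorkshire. For these fits, the called-length offsets, reciprocal overlap and the replicate block, the share over the 5 chromosomes was not worked out. Their counts are therefore not read as particular to chromosome 11. Higher in Wannanhua and in Yorkshire, DESeq2 passed 111 and 3 (with no adjusted p for 1597) and a centred called-length offset 39 and 5. Of the 15, that offset passed 2, chr11:3805845-3808102 (log2 fold change 0.89) and chr11:14956305-14956953 (1.02). The log2 fold change fell to 0.06 at chr11:1263224-1266105 and to 0.01 at chr11:3128092-3130961. The fragment length covariate passed 0 and 1, reciprocal overlap 19 and 4, and library size alone 16 and 10. Library size alone moved the median log2 fold change of the regions from 0.03 to -0.09. A called-length offset that was not centred, chosen after seeing the data, passed 0 and 1 and turned chr11:1263224-1266105 (-0.41), chr11:1132221-1133605 (-0.34), chr11:3128092-3130961 (-0.43) and chr11:4906570-4908043 (-0.33). Windows higher in Wannanhua and in Yorkshire numbered 3 and 4 with called bases and 10 and 0 with a score of at least 100. Fragment length as a covariate in limma, also chosen after seeing the data, passed 0.

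The labels give both breeds numbers 1 to 3 without saying that a number pairs samples. Same-numbered libraries deviated from their breed means with correlations of -0.0103, 0.0333 and -0.0483, and 1 of 6 libraries correlated best with its own number. With the replicate block 40 regions higher in Wannanhua passed and 6 higher in Yorkshire, and 0 windows did.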

Other observations

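The other 3 regions with more tags in Wannanhua fell outside the 10 largest differences. At chr11:14956305-14956953 the levels were 18.4 ± 1.26 CPM in Yorkshire and 43.1 ± 4.595 in Wannanhua (log2 fold change 1.24). At chr11:4906570-4908043 they were 28.03 ± 6.94 and 64.4 ± 4.45 (1.18), and per kb of called peak the order turned, 71.7 ± 42.7 against 50.5 ± 4.15. At chr11:22132663-22133851 they were 25.6 ± 5.60 and 63.96 ± 19.9 (1.20), and this was the region higher in Wannanhua that lay further than 20 Mb from both ends.

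Between the regions of one breed and those called everywhere, 292 had a peak in all 3 Wannanhua libraries and 1 Yorkshire library, and 387 the reverse. In 1036 regions all 3 Yorkshire libraries and 2 Wannanhua libraries had a peak, and in 598 all 3 Wannanhua and 2 Yorkshire libraries. Wannanhua 1 was the library that lacked the peak in 859 of those 1036. Single-breed regions were spread thinly: 18 windows held no Yorkshire-only region and 40 no Wannanhua-only region, and the fullest windows held 7 of the former, from 75000001 to 76000000, and 6 of the latter, from 3000001 to 4000000.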
